A study of Homo sapiens with 22 samples.

Results

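Thapsigargin and tunicamycin both disturb protein folding in the endoplasmic reticulum (ER), and the question here is which mRNAs and ribosome footprints differ between cells given one or the other for 6 h. The thapsigargin 6 h library was set against the 3 tunicamycin 6 h libraries, in RNA-Seq and in Ribo-Seq apart, which makes 8 of the 22 libraries of the study. The cells were LN308, an established astrocytoma-derived glial line without p53. Thapsigargin was given at 200 nM and tunicamycin at 2.5 µg/ml, and 3 untreated libraries of the 0 h time point stand beside them in each assay. Their labels call them untreated while the protocol names solvent alone (DMSO) as the control, so it is not clear whether the baseline holds the vehicle. The genes described are the 19230 protein-coding entries among the 58278 in the count tables. Each thapsigargin group was a single library, so its tests borrow the spread of the other groups and have no replicate check. No label tells whether the libraries of a group were grown as separate cultures, and the spread behind the p-values may therefore be technical.

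Thapsigargin blocks SERCA, the pump that loads calcium into the ER. The store then drains, ER chaperones that need calcium lose function, and calcium entering the cytosol can activate calcineurin, a phosphatase that sends NFAT factors into the nucleus. Tunicamycin blocks the first step of N-glycan assembly, so glycoproteins misfold without a direct effect on the calcium store. Misfolded proteins in the ER start the unfolded protein response (UPR) through the sensors PERK, IRE1 and ATF6. PERK raises translation of ATF4, IRE1 splices XBP1 mRNA, and ATF6 and spliced XBP1 turn on chaperone genes such as HSPA5.

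RNA-Seq totals were 144514571 counts in the thapsigargin 6 h library and 114935867 to 166586145 in the 3 tunicamycin 6 h libraries. Ribo-Seq totals were lower, at 6376027 counts in the thapsigargin library and 6920427 to 10127909 in the tunicamycin libraries. The tunicamycin libraries were not alike. In RNA-Seq, 430 protein-coding genes were at least 2-fold higher and 273 at least 2-fold lower in thapsigargin than in tunicamycin replicate 1. Against replicate 2 there were 984 higher and 1145 lower, and against replicate 3 there were 971 higher and 1120 lower. The thapsigargin RNA-Seq library carries the number 1 in its label, and the share of its counts in mitochondrially encoded mRNAs was 0.492%, close to the 0.479% of tunicamycin replicate 1 and below the 1.39% and 1.30% of replicates 2 and 3. In Ribo-Seq the thapsigargin label carries no number, and the order was the other way, with 881 higher and 713 lower against replicate 1, 498 and 701 against replicate 2, and 447 and 795 against replicate 3. The labels name no batch. The ratio to replicate 1 is given beside some of the comparisons with all 3. For most other genes the tunicamycin levels are listed in the order of replicates 1, 2 and 3. The thapsigargin footprint library also had 92.17% of its counts in protein-coding genes, against 84.44 to 86.29% in the tunicamycin libraries; the part of this share and of the mitochondrial one in the results was not tested.

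The best known UPR genes lay inside or next to the tunicamycin range under thapsigargin. All levels are CPM, a gene's share of its library's counts, scaled by the trimmed mean of M-values (TMM), and every difference is thapsigargin minus tunicamycin on the log2 scale, with its SE from edgeR's quasi-likelihood fit and a Benjamini-Hochberg adjusted p over all genes tested. HSPA5, the main ER chaperone (BiP), had 7490 CPM of mRNA in thapsigargin and 6890, 12100 and 14700 CPM in the 3 tunicamycin libraries, against 505 to 1140 CPM in untreated cells. The thapsigargin value lay inside the tunicamycin range and far above the untreated one, and the fitted difference was -0.59 ± 0.68 (0.12 against replicate 1, adjusted p = 0.982 in edgeR). Its footprints were also inside the range, with 5160 CPM in thapsigargin and 4730, 5990 and 7030 CPM in tunicamycin.

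HERPUD1, which serves ER-associated degradation, had 1310 CPM of mRNA in thapsigargin and 1040, 962 and 1120 CPM in tunicamycin, where untreated cells had 36.7 to 42.6 CPM. DNAJB9, a co-chaperone of HSPA5 and a target of spliced XBP1, had 598 CPM in thapsigargin and 389, 296 and 386 CPM in tunicamycin. XBP1 itself had 701 CPM in thapsigargin and 591, 422 and 475 CPM in tunicamycin. For these 3 genes the thapsigargin mRNA value was the highest of the 4, by less than 2-fold over the nearest library and with adjusted p values of 0.976, 0.799 and 0.964 in edgeR. The footprints of DNAJB9 did not follow, at 191 CPM in thapsigargin and 208, 259 and 282 CPM in tunicamycin, the lowest of the 4.

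Genes of the PERK branch also lay inside or near the tunicamycin range. ATF4 mRNA was 965 CPM in thapsigargin and 951, 766 and 810 CPM in tunicamycin, and its footprints were 472 CPM in thapsigargin and 405, 484 and 395 CPM in tunicamycin. DDIT3, the proapoptotic factor CHOP, had 461 CPM of mRNA in thapsigargin and 574, 202 and 194 CPM in tunicamycin, so that thapsigargin was near replicate 1 and above the other 2 libraries. TRIB3, a pseudokinase downstream of ATF4 and CHOP, had 603 CPM of mRNA in thapsigargin and 804, 718 and 780 CPM in tunicamycin. Its footprints had the reverse order, at 1830 CPM in thapsigargin and 1050, 1680 and 1450 CPM in tunicamycin. ASNS, the asparagine synthetase that ATF4 induces, had 497 CPM of mRNA in thapsigargin and 535, 390 and 472 CPM in tunicamycin. None of these genes passed the test in either assay.

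**Figure D1:**
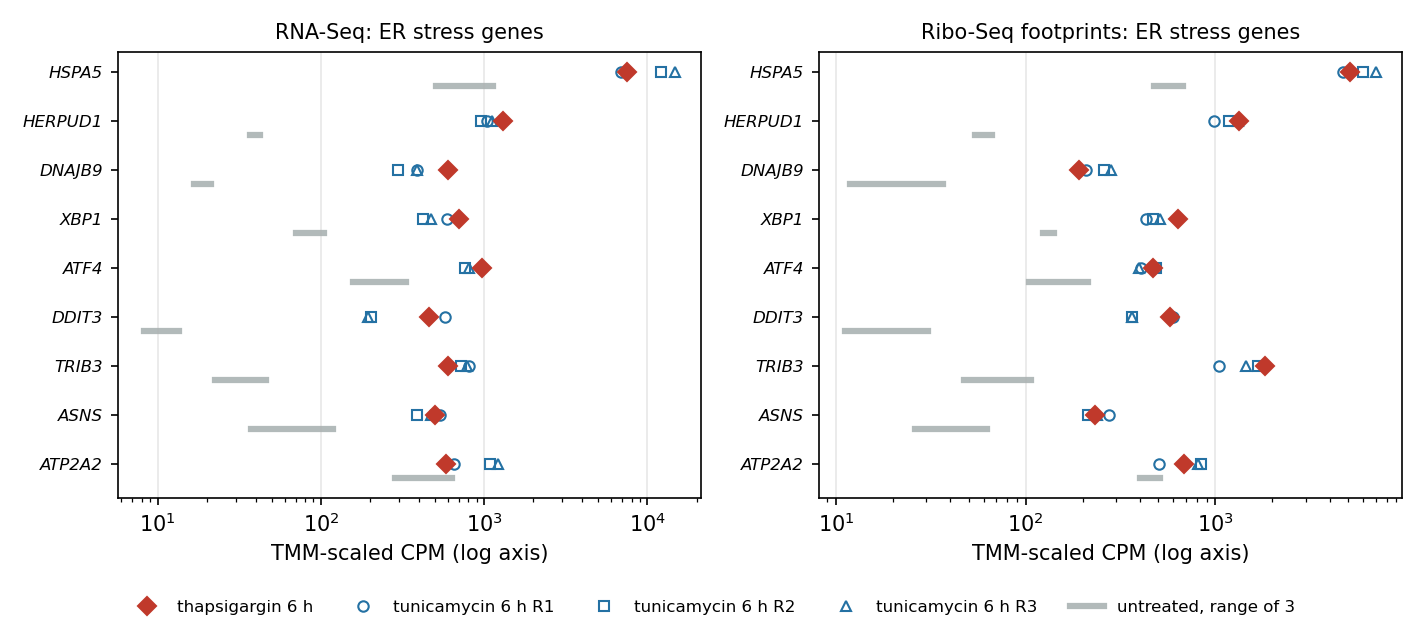
Levels of 9 ER stress genes in RNA-Seq (left) and Ribo-Seq (right), as TMM-scaled CPM on a log axis; red diamonds are the single thapsigargin 6 h library, blue open symbols the 3 tunicamycin 6 h libraries and grey bars the range of 3 untreated libraries. The red diamond lies among or next to the blue symbols, while both drugs lie above the grey bars except for ATP2A2.

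The promoters of 3 of these genes are shown because they hold the letters of an element that was searched for. So is that of 1 autophagy gene whose mRNA was at least 2-fold above every tunicamycin library, though it was not called by the edgeR test. Whether these elements act in these cells was not tested. They are the 250 bases before the start in RefSeq (GRCh38.p14), 5′ to 3′ along the gene's strand, with the element in capitals. In HSPA5 (chr9:125241344-125241593, minus strand) and XBP1 (chr22:28800570-28800819, minus strand) it is the ER stress element, CCAAT, 9 bases and CCACG, which ATF6 and NF-Y bind. In HERPUD1 (chr16:56931892-56932141, plus strand) it is the CARE letters TGATGCAA on the opposite strand, the kind of element that ATF4 with a C/EBP partner binds. In GABARAPL1 (chr12:10212627-10212876, plus strand) it is the cyclic AMP response element TGACGTCA, bound by CREB and related factors.
HSPA5: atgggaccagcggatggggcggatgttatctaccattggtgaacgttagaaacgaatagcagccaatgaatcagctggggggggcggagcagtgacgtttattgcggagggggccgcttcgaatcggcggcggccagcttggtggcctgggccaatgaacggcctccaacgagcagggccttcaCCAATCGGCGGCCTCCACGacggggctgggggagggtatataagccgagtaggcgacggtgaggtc
XBP1: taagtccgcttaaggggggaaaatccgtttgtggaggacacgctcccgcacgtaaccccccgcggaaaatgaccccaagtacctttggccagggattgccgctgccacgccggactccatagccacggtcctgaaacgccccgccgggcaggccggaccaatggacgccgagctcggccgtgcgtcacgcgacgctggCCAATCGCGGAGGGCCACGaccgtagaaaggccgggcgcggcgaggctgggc
HERPUD1: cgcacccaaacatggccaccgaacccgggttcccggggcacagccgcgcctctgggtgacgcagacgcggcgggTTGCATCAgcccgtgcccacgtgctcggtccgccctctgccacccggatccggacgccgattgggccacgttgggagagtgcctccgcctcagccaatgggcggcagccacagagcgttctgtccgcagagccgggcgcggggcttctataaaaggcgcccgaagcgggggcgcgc
GABARAPL1: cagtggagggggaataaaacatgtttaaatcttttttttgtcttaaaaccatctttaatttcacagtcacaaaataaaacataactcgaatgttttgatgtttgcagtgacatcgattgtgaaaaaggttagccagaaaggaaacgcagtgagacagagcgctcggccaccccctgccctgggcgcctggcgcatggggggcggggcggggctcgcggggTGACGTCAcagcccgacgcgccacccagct

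These elements and the UPR element TGACGTGG were searched on both strands from 250 bases before to 50 after the start of 15375 protein-coding promoters, of which 0.124% held the ER stress element, 0.852% the UPR element, 0.676% CARE and 2.63% the cyclic AMP element. The cyclic AMP element was present in 6.04% of 182 promoters of genes whose mRNA was at least 2-fold above every tunicamycin library, against 3.26% of 10874 promoters of measured genes, and the ER stress element in 0%. Among mRNAs below the range it was in 0.917% of 109 promoters. In footprints it was in 5.37% of 149 promoters of genes above, 3.94% of 203 of genes below and 3.72% of 8326 of measured genes. No test was made of these shares. Only exact matches to the letters given were sought. An ER stress element of another form, also in HERPUD1, would be neither marked nor counted. Letters in a promoter do not show that a factor binds there.

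A gene was counted as outside the tunicamycin range where thapsigargin was at least 2-fold above the highest, or at least 2-fold below the lowest, of the 3 tunicamycin libraries, with 0.5 CPM added and a mean count of 50 or more over the 4 libraries, among protein-coding genes (called measured genes). In RNA-Seq 231 of 13212 genes (1.75%) were above and 146 (1.11%) below. In Ribo-Seq 187 of 9946 (1.88%) were above and 246 (2.47%) below. No mRNA passed the edgeR test at an adjusted p under 0.05 (0% of 18276 protein-coding genes tested in either direction, and 0 of 41130 entries in all), and 727 were higher (3.98%) and 599 lower (3.28%) at an unadjusted p under 0.05. DESeq2 called 159 higher and 112 lower. In footprints 2 of 13426 genes (0.0149%) rose and 0% fell, against 494 (3.68%) and 530 (3.95%) at an unadjusted p under 0.05; of all 19411 entries, 4 (0.0206%) were called. Without tunicamycin replicate 1 the mRNA counts became 768 above and 980 below, and the footprint counts 285 above and 540 below. Leaving out a library can only keep or raise these counts; without replicate 2 or 3 there were 261 or 253 mRNAs above and 151 or 169 below, and 237 or 273 footprint genes above and 326 or 291 below.

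Against those shares a count of 0 or 1 in a list of this size is near the background. Of 33 measured ER chaperones and folding enzymes none was outside in mRNA, with a median difference of 0.16, where all measured protein-coding genes had a median of 0.05. In footprints DNAJC25 was below, at 10.1 CPM in thapsigargin and 23.0 to 32.0 CPM in tunicamycin. None of 26 genes of ER-associated degradation was outside in either assay. Of 25 measured PERK-ATF4 targets, ATF3 and KLHL24 were above in mRNA. Among 23 in footprints, ATF3 and DDIT4 were above and SLC7A11, the cystine transporter, was below, at 110 CPM in thapsigargin and 296, 461 and 363 CPM in tunicamycin. None of 26 genes for amino acid synthesis and transport and none of 20 cytosolic tRNA synthetases was outside in mRNA, and in footprints SLC7A11 was the only one of either list. Of 15 UPR sensors and factors, ATF3 was above in mRNA, and ATF3 and CREB3, an ER-anchored factor, were above in footprints.

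ATF3, a stress factor of the ATF family induced by both ATF4 and calcium signals, had 251 CPM of mRNA in thapsigargin and 70.5, 75.4 and 70.7 CPM in tunicamycin, against 6.20 to 20.1 CPM in untreated cells. All 3 tunicamycin values were close together and the thapsigargin value stood 1.73 above the nearest on the log2 scale (difference 1.80 ± 0.84, adjusted p = 0.883 in edgeR). At 2 h it had been 615 CPM in thapsigargin and 26.2 to 256 CPM in tunicamycin. DDIT4, an inhibitor of mTORC1, had 673 CPM of footprints in thapsigargin and 216, 185 and 274 CPM in tunicamycin, while its mRNA was 155 CPM in thapsigargin and 95.6, 126 and 157 CPM in tunicamycin.

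**Figure D2:**
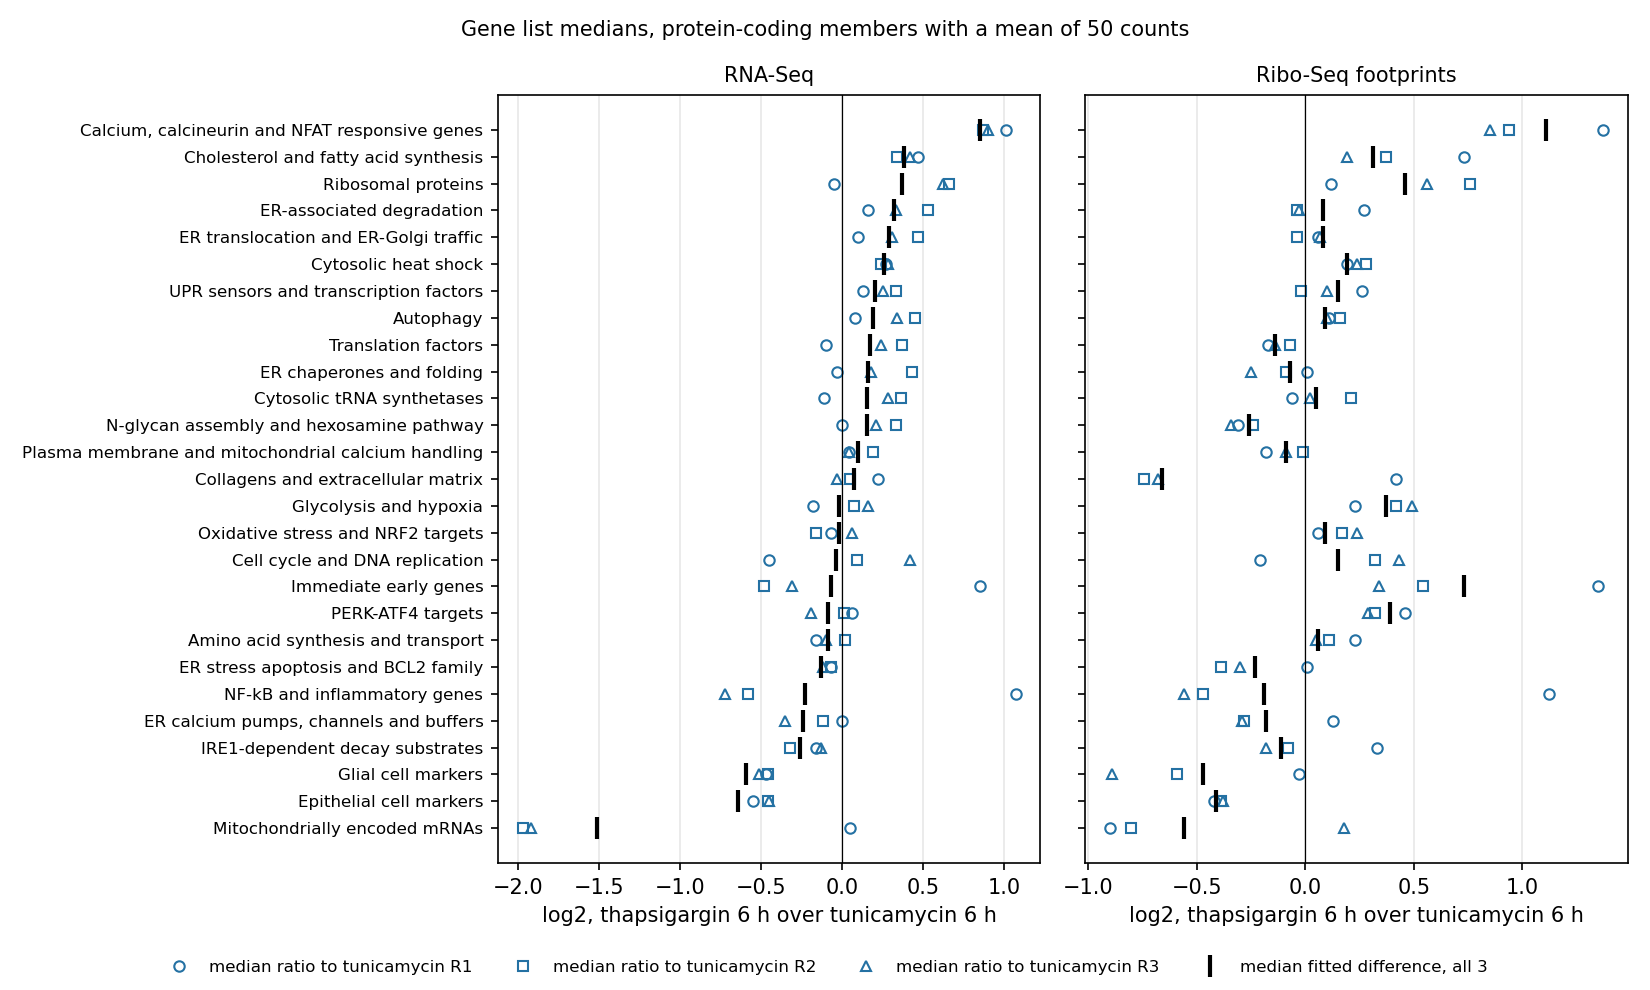
Median log2 ratio of thapsigargin 6 h over tunicamycin 6 h for the measured members of 27 gene lists, in RNA-Seq (left) and Ribo-Seq (right); blue open symbols are the medians against each tunicamycin library and the black bar is the median fitted difference against all 3. The calcium, calcineurin and NFAT list stands at the top of both panels, at 0.85 in RNA-Seq and 1.11 in Ribo-Seq, and in the NF-kB and immediate early lists replicate 1 lies apart from replicates 2 and 3. The lists were chosen with earlier results of these data known.

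Many measured members of the list of genes that answer to calcium, calcineurin and NFAT were above the tunicamycin range. The list was chosen with earlier results of these data known, so its counts and medians are no independent test. Over all measured genes 1.75% were above and 1.11% below in mRNA, and 1.88% and 2.47% in footprints. In mRNA 8 of 21 measured members were above (RCAN1, NFATC2, NFATC4, NR4A1, NR4A2, NR4A3, PTGS2 and IL6) and 1, BDNF, was below. The list median was 0.85 against all 3 tunicamycin libraries and 1.01 against replicate 1, where all measured genes had medians of 0.05 and -0.05. In footprints 8 of 19 were above, with EGR3 in place of RCAN1, and BDNF was again below. The footprint medians were 1.11 against all 3 and 1.37 against replicate 1, beside -0.03 and 0.03 over all measured genes. None of these members passed the edgeR test in either assay.

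The 3 NR4A genes, orphan nuclear receptors that are induced within the first hours of a calcium or growth signal, were far above the tunicamycin range in both assays. NR4A3 had 191 CPM of mRNA in thapsigargin and 1.23, 8.53 and 9.70 CPM in tunicamycin, while untreated cells had 2.99 to 13.8 CPM. The tunicamycin values overlapped the untreated range and the thapsigargin value was 19.7-fold above the highest of them. Against replicate 1 alone the ratio was 155-fold (95% interval 134 to 180, which covers counting error only), and the fitted difference to all 3 was 4.88 ± 1.52 (adjusted p = 0.632 in edgeR). Its footprints were 349 CPM in thapsigargin and 2.65, 6.94 and 13.3 CPM in tunicamycin.

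NR4A1 had 345 CPM of mRNA in thapsigargin and 10.9, 63.4 and 46.3 CPM in tunicamycin, and 1080 CPM of footprints in thapsigargin against 21.0, 58.5 and 81.5 CPM. NR4A2 had 267 CPM of mRNA in thapsigargin and 30.4, 50.1 and 36.4 CPM in tunicamycin, and 411 CPM of footprints in thapsigargin against 58.5, 35.7 and 54.7 CPM. These genes were named for lying above every tunicamycin library, so the gap between the drugs was fixed by that choice. NR4A2 came nearest to the threshold of the 3, with a footprint difference of 3.05 ± 0.52 and an adjusted p of 0.0902 in edgeR. All 3 mRNAs had been higher at 2 h of thapsigargin, at 367 CPM for NR4A3, 806 CPM for NR4A1 and 676 CPM for NR4A2, while tunicamycin at 2 h spread over 1.08 to 123 CPM, 22.2 to 645 CPM and 18.3 to 102 CPM.

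RCAN1, an inhibitor of calcineurin whose gene NFAT itself turns on, had 4660 CPM of mRNA in thapsigargin and 2290, 1550 and 2010 CPM in tunicamycin, against 306 to 491 CPM in untreated cells. It was thus high under both drugs and highest under thapsigargin (difference 1.26 ± 0.41, 1.02 against replicate 1, adjusted p = 0.660 in edgeR). NFATC2, which encodes a calcineurin-regulated NFAT factor, had 513 CPM in thapsigargin and 157, 208 and 177 CPM in tunicamycin. Untreated cells had 266 to 709 CPM of NFATC2, so tunicamycin was the condition that stood apart from the baseline. NFATC4 had 25.4 CPM in thapsigargin and 7.76, 7.10 and 4.50 CPM in tunicamycin, with 7.47 to 26.9 CPM in untreated cells. PPP3CA, a calcineurin subunit gene, had 81.4 CPM in thapsigargin and 73.8, 58.9 and 55.0 CPM in tunicamycin. Footprints of PPP3CC, another subunit gene, were 31.4 CPM in thapsigargin and 8.92, 17.3 and 17.2 CPM in tunicamycin. That was less than 2-fold above the nearest library (difference 1.11, 1.76 against replicate 1).

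RGS2 was 1 of the 2 protein-coding genes that passed the test in footprints. It encodes a GTPase-activating protein that shortens Gq signalling and thereby calcium release. Its footprints rose to 62.1 CPM in thapsigargin, against 4.74, 6.58 and 6.47 CPM in tunicamycin and 7.93 to 15.9 CPM in untreated cells. The difference was 3.38 ± 0.42 (3.58 against replicate 1), with an adjusted p of 0.0284 in edgeR. Its mRNA was 126 CPM in thapsigargin and 7.08, 8.47 and 9.03 CPM in tunicamycin, and the difference of 3.94 ± 0.52 missed the threshold (adjusted p = 0.0645 in edgeR). Of the 12 alternatives run for this mRNA 5 called it, with adjusted p values over all 12 of 5.94e-08 to 0.818. At 2 h the mRNA had stood at 268 CPM in thapsigargin and 10.4 to 26.3 CPM in tunicamycin.

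The other footprint call was MAP1A, a microtubule-associated protein best known from neurons. Its footprints rose to 124 CPM in thapsigargin, against 14.8, 19.0 and 21.5 CPM in tunicamycin (difference 2.74 ± 0.37, 3.02 against replicate 1, adjusted p = 0.0361 in edgeR). Its mRNA was 87.7 CPM in thapsigargin and 22.4, 25.0 and 12.7 CPM in tunicamycin. Both footprint calls were lost when any 1 of the 3 tunicamycin libraries was left out, with adjusted p values of 0.165 to 0.194 for RGS2 and 0.165 to 0.208 for MAP1A. Both were also lost against replicate 1 alone (adjusted p = 0.500 each). Over the 10 alternatives run, 6 called each gene, and the adjusted p ran over 9.56e-10 to 0.500 for RGS2 and 4.33e-07 to 0.500 for MAP1A.

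Signalling genes of other kinds were among those above. IL6, an inflammatory cytokine, had 42.7 CPM of mRNA in thapsigargin and 1.61, 2.71 and 3.22 CPM in tunicamycin, and 38.0 CPM of footprints in thapsigargin against 2.23, 2.80 and 3.35 CPM. It was near its baseline at 2 h, at 1.96 CPM of mRNA in thapsigargin and 0.281 to 1.65 CPM in tunicamycin. PTGS2, the inducible cyclooxygenase of prostaglandin synthesis, had 1010 CPM of mRNA in thapsigargin and 115, 142 and 152 CPM in tunicamycin, with 12.4 to 53.5 CPM in untreated cells. Both genes were named for lying above every tunicamycin library, so the gap between the drugs was fixed by that choice. The mRNA of IL6 and of PTGS2 in tunicamycin at 6 h was itself above every untreated library.

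FST, the activin-binding protein follistatin, was among the most abundant of these, with 2670 CPM of mRNA in thapsigargin and 84.4, 278 and 442 CPM in tunicamycin. Its difference was 3.32 ± 0.71 against all 3 and 4.97 against replicate 1, where tunicamycin was lowest (adjusted p = 0.285 in edgeR). HAS2, which makes hyaluronan, had 24.3 CPM of mRNA in thapsigargin and 3.80, 2.34 and 1.47 CPM in tunicamycin. MEF2C, a transcription factor that calcineurin and calcium-dependent kinases regulate, had 163 CPM of mRNA in thapsigargin and 29.3, 29.8 and 24.2 CPM in tunicamycin, while untreated cells had 38.8 to 95.4 CPM. The remaining genes among the 12 highest mRNAs were LRP2 (the endocytic receptor megalin), ARHGAP20 (a GTPase-activating protein), NEBL (the actin-binding nebulette) and SSUH2, with thapsigargin 2.50 to 3.17 above the nearest tunicamycin library on the log2 scale.

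**Figure D3:**
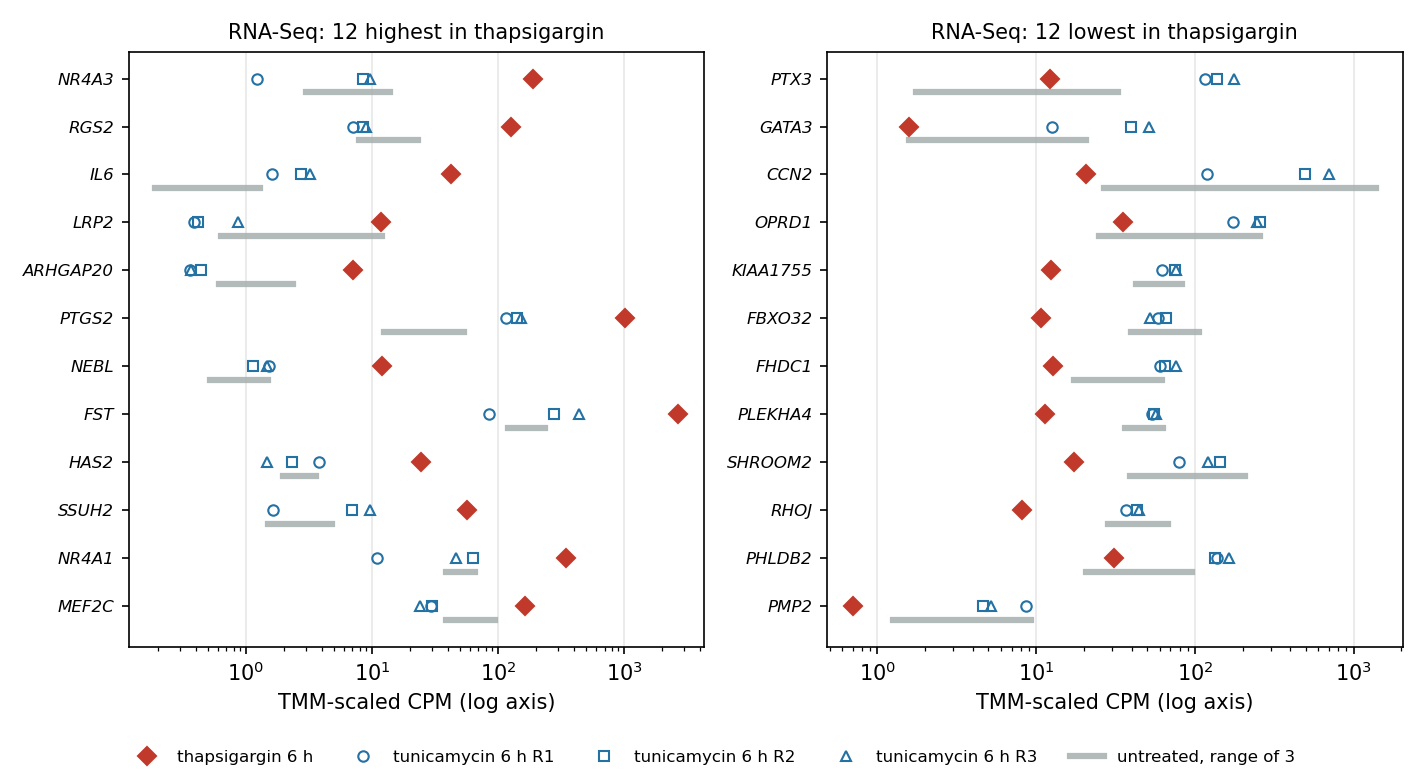
RNA-Seq levels, as TMM-scaled CPM on a log axis, of the 12 protein-coding genes highest (left) and the 12 lowest (right) in thapsigargin 6 h by the ratio to the nearest tunicamycin library; red diamonds are thapsigargin, blue open symbols the 3 tunicamycin libraries and grey bars the range of 3 untreated libraries. By this choice the red diamonds lie right of all blue symbols on the left panel and left of them on the right panel; NR4A3 has the widest gap on the left and PTX3 on the right.

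Immediate early genes, which answer growth and stress signals without new protein synthesis, went both ways. In mRNA 3 of 30 measured members were above (FOSB, KLF4 and NR4A1) and 4 below (FOSL1, EGR1, MYC and CCN2), with a median of -0.07 against all 3 and 0.85 against replicate 1. In footprints 6 of 29 were above (FOS, FOSB, JUND, EGR3, KLF4 and NR4A1) and 4 below (EGR1, DUSP6, MYC and CCN2), with medians of 0.73 and 1.35. The shares over all measured genes were 1.75% above and 1.11% below in mRNA, and 1.88% and 2.47% in footprints. Their medians were 0.05 and -0.05 in mRNA, and -0.03 and 0.03 in footprints. This list too was chosen with earlier results of these data known, and it was not tested against these shares. FOSB, a subunit of the AP-1 factor, had 120 CPM of footprints in thapsigargin and 2.23, 10.1 and 14.7 CPM in tunicamycin. EGR1 had 18.8 CPM of mRNA in thapsigargin and 47.5, 201 and 143 CPM in tunicamycin, whereas its relative EGR3 had 77.1 CPM in thapsigargin and 13.4, 40.8 and 28.1 CPM in tunicamycin. MYC had 36.9 CPM of mRNA in thapsigargin and 97.0, 172 and 213 CPM in tunicamycin.

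NF-kB and inflammatory genes depended on which tunicamycin library was taken. Their median mRNA ratio was 1.07 against replicate 1, -0.58 against replicate 2 and -0.72 against replicate 3. The chemokine CXCL8 shows it, with 448 CPM of mRNA in thapsigargin and 88.0, 1480 and 1640 CPM in tunicamycin. Of 19 measured members, IL6 and CXCL3 were above in mRNA and PTX3 was below, beside 1.75% above and 1.11% below over all measured genes.

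Cholesterol synthesis also had mRNAs above the range. Of 27 measured genes of cholesterol and fatty acid synthesis 4 were above in mRNA, HMGCS1, SQLE and INSIG1 among them, and none was below. The median was 0.38, and 0.47 against replicate 1. All measured genes had 1.75% above and 1.11% below, with medians of 0.05 and -0.05. The list was chosen with earlier results of these data known, and it was not tested against these shares. SQLE, the squalene epoxidase, had 118 CPM in thapsigargin and 39.8, 47.8 and 52.1 CPM in tunicamycin (difference 1.34 ± 0.31, 1.55 against replicate 1, adjusted p = 0.332 in edgeR). INSIG1, the ER protein that holds back SREBP activation and is itself an SREBP target, had 174 CPM in thapsigargin and 19.6, 58.3 and 55.7 CPM in tunicamycin. In footprints INSIG1 alone of 26 was above, at 170 CPM in thapsigargin and 20.3, 44.0 and 58.6 CPM in tunicamycin.

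Of the calcium machinery itself, none of 23 measured ER calcium pumps, channels and buffers was outside in mRNA, a count near the background of 1.75% above and 1.11% below, with a median of -0.24 (0.00 against replicate 1). ATP2A2, which encodes the SERCA pump of most tissues, had 580 CPM of mRNA in thapsigargin and 653, 1080 and 1220 CPM in tunicamycin. Its footprints were 685 CPM in thapsigargin and 505, 840 and 810 CPM in tunicamycin, within that range. ATP2B1, a calcium pump of the plasma membrane, was above in mRNA, with 454 CPM in thapsigargin and 168, 142 and 156 CPM in tunicamycin (difference 1.55 ± 0.35, adjusted p = 0.322 in edgeR). Its footprints were nearer to each other, at 111 CPM in thapsigargin and 57.7, 87.2 and 94.9 CPM in tunicamycin. The calmodulin gene CALM2 and the channel kinase TRPM7 were below in footprints, and CALM2 had 159 CPM in thapsigargin and 479, 390 and 335 CPM in tunicamycin.

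In the pathway that tunicamycin blocks, UAP1 alone of 33 measured genes of N-glycan assembly and hexosamine synthesis was outside in mRNA. UAP1 makes UDP-N-acetylglucosamine, the sugar donor of the step that tunicamycin inhibits. It had 364 CPM of mRNA in thapsigargin and 764, 886 and 1220 CPM in tunicamycin, against 58.0 to 357 CPM in untreated cells, so the thapsigargin value was close to the highest untreated one. Its footprints were 157 CPM in thapsigargin and 447, 589 and 641 CPM in tunicamycin, against 77.6 to 196 CPM in untreated cells (difference -1.83 ± 0.56, adjusted p = 0.421 in edgeR). GFPT1, which opens the hexosamine pathway, had 806 CPM of mRNA in thapsigargin and 649, 607 and 793 CPM in tunicamycin, and DPAGT1, the enzyme that tunicamycin inhibits, had 44.3 CPM in thapsigargin and 42.2, 38.4 and 41.4 CPM in tunicamycin.

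The lowest genes in mRNA were of mixed function. PTX3, a secreted pentraxin of innate immunity, had 12.3 CPM of mRNA in thapsigargin and 115, 138 and 176 CPM in tunicamycin. Untreated cells had 1.76 to 32.7 CPM, so thapsigargin was within the baseline and tunicamycin above it (difference -3.54 ± 1.33, -3.17 against replicate 1, adjusted p = 0.779 in edgeR). GATA3, a transcription factor, had 1.57 CPM in thapsigargin and 12.5, 39.8 and 51.3 CPM in tunicamycin, with 1.59 to 20.5 CPM in untreated cells. CCN2, a matricellular protein induced by YAP and TGF-beta signals, had 20.7 CPM in thapsigargin and 119, 496 and 704 CPM in tunicamycin. Its untreated libraries spread over 26.7 to 1390 CPM, and the difference of -4.41 had an SE of 2.25 (adjusted p = 0.908 in edgeR).

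Among the other low mRNAs, SHROOM2 and FHDC1 act on actin, RHOJ is a small GTPase, and PHLDB2 anchors microtubules at the cell cortex. PHLDB2 had 30.8 CPM in thapsigargin and 138, 134 and 165 CPM in tunicamycin. RHOJ had 8.15 CPM in thapsigargin and 36.7, 43.3 and 44.4 CPM in tunicamycin. FBXO32, the ubiquitin ligase atrogin-1, had 10.8 CPM in thapsigargin and 58.3, 65.7 and 52.2 CPM in tunicamycin. OPRD1, the delta opioid receptor, had 35.4 CPM in thapsigargin and 174, 257 and 245 CPM in tunicamycin. PLEKHA4, KIAA1755 and PMP2, a fatty acid binding protein of myelin, complete the 12, with thapsigargin 2.10 to 2.28 below the nearest tunicamycin library on the log2 scale. The gap to thapsigargin in these genes was fixed by how they were chosen.

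The cell cycle list had only a few genes outside in each assay, and its medians were -0.04 in mRNA and 0.15 in footprints. Over all measured genes 1.75% were above and 1.11% below in mRNA, and 1.88% and 2.47% in footprints. The list was not tested against these shares. In mRNA CCND1 and PLK1 were below among 32 measured cell cycle genes, and CCND1 had 364 CPM in thapsigargin and 745, 1210 and 1180 CPM in tunicamycin. Among 32 in footprints, E2F2 was above and TOP2A and MKI67 were below. TOP2A, the topoisomerase of dividing cells, had 86.2 CPM of footprints in thapsigargin and 289, 196 and 196 CPM in tunicamycin. Of the BCL2 family and other ER stress apoptosis genes, BCL2L11, which encodes the proapoptotic BIM, was above in both assays. It had 30.8 CPM of mRNA in thapsigargin and 7.14, 10.2 and 7.72 CPM in tunicamycin, and untreated cells had 6.58 to 54.5 CPM. The autophagy gene GABARAPL1 was above in mRNA, at 44.0 CPM in thapsigargin and 15.9, 17.1 and 18.5 CPM in tunicamycin, and SQSTM1, the autophagy receptor p62, was above in footprints, at 1090 CPM in thapsigargin and 383, 405 and 376 CPM in tunicamycin.

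**Figure D4:**
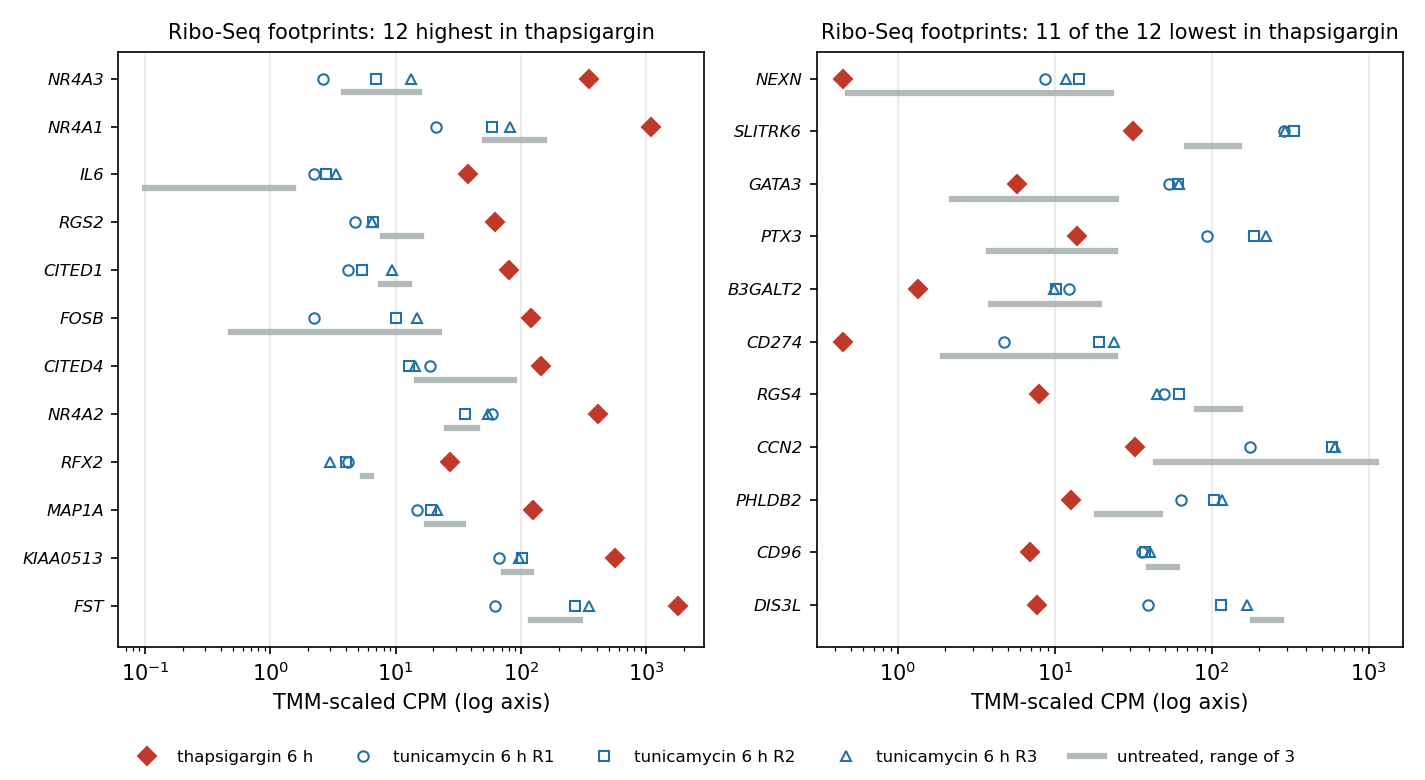
Ribo-Seq levels, as TMM-scaled CPM on a log axis, of the 12 protein-coding genes highest (left) and 11 of the 12 lowest (right) in thapsigargin 6 h by the ratio to the nearest tunicamycin library; red diamonds are thapsigargin, blue open symbols the 3 tunicamycin libraries and grey bars the range of 3 untreated libraries, with an untreated level of 0 drawn at 0.1. NR4A3, NR4A1, IL6 and RGS2 head the left panel, and NEXN and CD274 on the right rest on 3 counts each in thapsigargin.

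In footprints the leading genes beyond those already described were CITED1 and CITED4, coactivators that bind CBP and p300, RFX2, a factor of ciliary genes, and KIAA0513. CITED1 had 79.4 CPM in thapsigargin and 4.18, 5.36 and 9.26 CPM in tunicamycin (difference 3.66 ± 0.68, adjusted p = 0.0946 in edgeR). KIAA0513 had 561 CPM in thapsigargin and 66.5, 101 and 96.2 CPM in tunicamycin (difference 2.67 ± 0.44, adjusted p = 0.0902). At the low end SLITRK6, a neuronal transmembrane protein, had 31.4 CPM in thapsigargin and 290, 333 and 294 CPM in tunicamycin, with 69.3 to 150 CPM in untreated cells (difference -3.28 ± 0.57, adjusted p = 0.0902 in edgeR). Its mRNA gap was smaller, at 145 CPM in thapsigargin and 500, 311 and 359 CPM in tunicamycin. RGS4, a relative of RGS2, had 7.96 CPM of footprints in thapsigargin and 49.7, 61.9 and 45.0 CPM in tunicamycin, the opposite order to RGS2.

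Some of the low footprint values rest on few counts. CD274, the immune checkpoint ligand PD-L1, had 3 counts in thapsigargin and 34, 157 and 214 in tunicamycin, a ratio to replicate 1 of 0.0951 (95% interval 0.0187 to 0.302). NEXN, an actin-binding protein, had 3 counts in thapsigargin and 62, 117 and 105 in tunicamycin, a ratio of 0.0521 (0.0105 to 0.160). These intervals cover counting error only. Of 63 measured ribosomal protein genes, RPL13 and RPL27 were above in footprints and none was below, with a median of 0.46 (0.12 against replicate 1). Over all measured genes 1.88% of footprints were above and 2.47% below, with a median of -0.03 (0.03 against replicate 1). No ribosomal protein gene was outside in mRNA. Ribosomal protein genes share reads with many pseudogene copies, so their values are uncertain.

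Both assays measured 9920 protein-coding genes. Of these, 79 were above the tunicamycin range in both, which is 46.5% of the 170 above in mRNA and 42.2% of the 187 above in footprints. Below in both were 48, which is 40.0% of the 120 below in mRNA and 19.8% of the 242 below in footprints. None was above in one assay and below in the other. Over all measured genes 1.75% were above and 1.11% below in mRNA, and 1.88% and 2.47% in footprints. With shares this small, few opposite genes would be met even between unrelated assays. Neither the overlaps nor the lack of opposite genes was tested. The 79 hold the 3 NR4A genes, RGS2, IL6, PTGS2, FST, MEF2C, ATF3, INSIG1, BCL2L11, MAP1A and GEM, a small GTP-binding protein that limits calcium channels. The 48 hold PTX3, GATA3, CCN2, MYC, EGR1, BDNF, UAP1, SLITRK6 and RGS4.

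**Figure D5:**
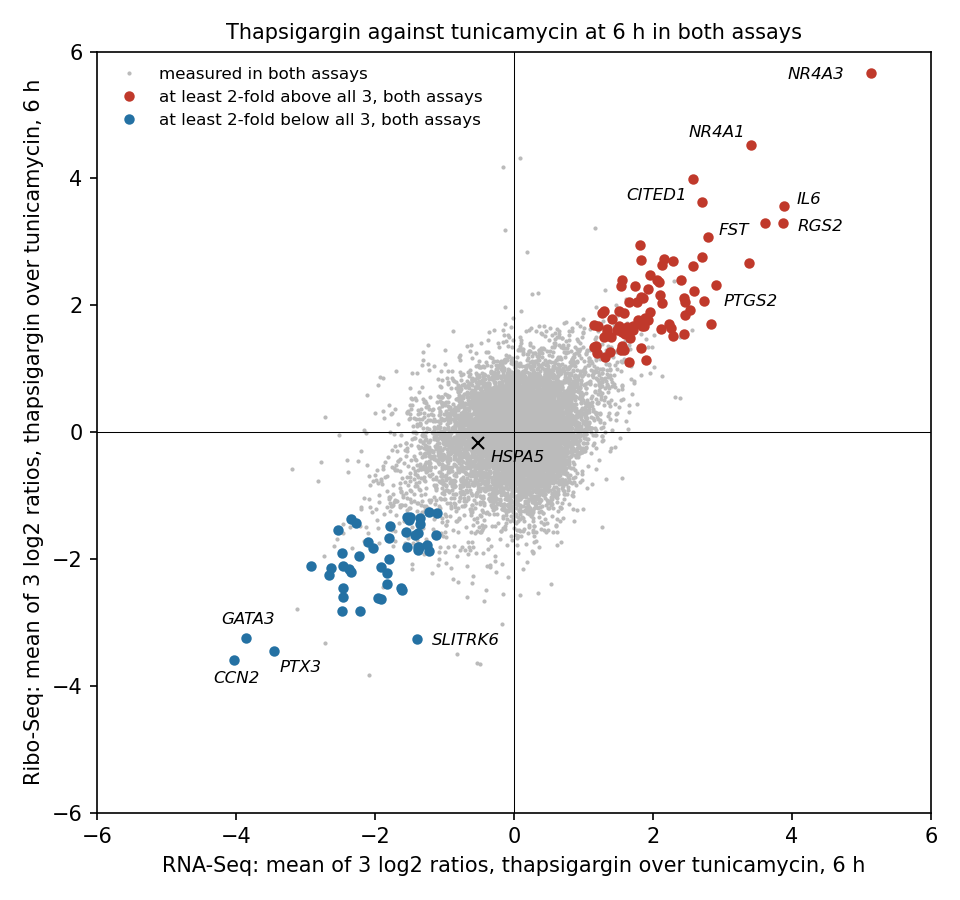
Each point is a protein-coding gene measured in both assays, placed by the mean of its 3 log2 ratios of thapsigargin 6 h over a tunicamycin 6 h library in RNA-Seq (horizontal) and Ribo-Seq (vertical). Red points are the 79 genes at least 2-fold above all 3 tunicamycin libraries in both assays, blue points the 48 at least 2-fold below, and the cross is HSPA5, which lies near the origin.

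None of 40 genes of ER translocation and ER-Golgi traffic and no translation factor was outside in either assay. Single genes were above in mRNA in the lists for substrates of IRE1-dependent decay (PMP22), cytosolic heat shock (DNAJB4), oxidative stress (MT1X), extracellular matrix (MMP1) and glycolysis (SLC2A3). SLC2A3, the glucose transporter GLUT3, had 108 CPM of mRNA in thapsigargin and 25.6, 28.7 and 25.0 CPM in tunicamycin (difference 2.03 ± 0.28, adjusted p = 0.0659 in edgeR). In footprints CD59 and PFKFB4 were below and PER1 and NDRG1 above. The 13 mitochondrially encoded mRNAs had a median mRNA difference of -1.51 against all 3 libraries, made up of 0.05 against replicate 1, -1.97 against replicate 2 and -1.92 against replicate 3.

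Glial identity was checked by markers; in bulk samples, fewer cells of a type and less RNA per cell cannot be told apart. VIM, CD44, NES and S100B were expressed, with VIM at 1310 CPM of mRNA in thapsigargin and 1320, 1580 and 1640 CPM in tunicamycin, while GFAP was at 1.93 CPM in thapsigargin and 2.82 to 3.38 CPM in tunicamycin and AQP4 was under 0.1 CPM in all 4 libraries. Of 15 glial markers 10 were measured in mRNA, and the rest had a mean under 50 counts. GLUL, the glutamine synthetase, was at least 2-fold above in mRNA, and S100B and NES were at least 2-fold below. By any margin 1 of the 10 lay above all 3 tunicamycin libraries and 7 lay below, with a median of -0.59 (-0.47 against replicate 1). Over all measured genes 31.9% lay above and 29.2% below by any margin. S100B had 43.5 CPM in thapsigargin and 162, 97.3 and 95.8 CPM in tunicamycin. The 10 blood cell markers summed to 1.38 CPM of mRNA in thapsigargin and 1.64 to 1.99 CPM in tunicamycin, near 0, and the 10 epithelial markers to 96.5 CPM in thapsigargin and 90.9 to 147 CPM in tunicamycin.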

How the data were processed

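The column used from the deposited files holds whole read counts per gene, not normalized. Per the submitters' processing notes, STAR 2.5.4b, HTSeq and DESeq2 were used with GRCh38; which step each served, and whether strand was used, is not stated in the labels, so overlapping and antisense genes cannot be told apart. Ribo-Seq sampled ribosome-protected fragments after cycloheximide, per the labels' protocols. Symbols were found for 57437 of 58278 entries, and 19230 matched a protein-coding gene in RefSeq; 14 entries sharing 7 symbols were kept by identifier. Counts were fitted with edgeR 4.0.16 in R 4.3.3 (filterByExpr with a minimum count of 10, TMM, robust quasi-likelihood) over all 11 libraries of an assay, and the thapsigargin 6 h minus tunicamycin 6 h contrast was called where the adjusted p was under 0.05. The common dispersion, as a coefficient of variation, came to 0.506 in RNA-Seq and 0.546 in Ribo-Seq. DESeq2 1.42.0 served as an alternative. The main fit was also run on simulated counts with a single dispersion and no differences tied to replicate number. That setting is simpler than these data, so it cannot show how the fit behaves on libraries as uneven as these.

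Per assay, the named genes are the 12 highest and 12 lowest by the ratio to the nearest tunicamycin library, up to 3 members of each of 28 gene lists (704 entries, 700 matched) that lay outside the tunicamycin range, by smallest p, and 9 ER stress genes; other genes were chosen after their values were seen. Promoter sequences were found for 71 of 91 named genes. The members and lists were chosen with earlier results of these data known. RNA-Seq untreated replicate 1 had counts in 53489 entries, while its fellow RNA-Seq libraries had 38264 to 40331. A few genes that the rule names are not reported here.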

Additional observations from a re-analysis of the deposited data

How the results depend on the processing

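Counts of called genes moved with the test and the libraries, and the cause was not tested. In RNA-Seq 0 protein-coding mRNAs were called higher and 0 lower. Without the filter on low counts 19 were higher, and with DESeq2 159 were higher and 112 lower. Leaving out any 1 of the 3 tunicamycin 6 h libraries gave 0 higher and 0 lower. Without untreated replicate 1 there were 85 higher and 23 lower. No other library was left out in either assay. In Ribo-Seq 2 footprint genes were called higher and 0 lower. Without the filter there were 56 higher and 45 lower, with DESeq2 43 and 63, and when fitting only the thapsigargin and tunicamycin libraries of 6 h 11 and 2. Leaving out any 1 of the 3 tunicamycin 6 h footprint libraries gave 0 higher and 0 lower, and without untreated replicate 1 there were 20 higher and 7 lower. Leaving out each tunicamycin library in turn gave 253 to 768 mRNAs outside above and 151 to 980 below, and 237 to 285 footprint genes above and 291 to 540 below, with the highest count each time without replicate 1. Scaling by library size alone put 297 footprint genes above, and a mean count of 10 put 424 below.

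A replicate block in RNA-Seq called 22 mRNAs higher, RGS2, IL6 and SSUH2 among them (adjusted p = 0.0215, 0.0215 and 0.0308 in edgeR), and the replicate block without untreated replicate 1, added after seeing the data, 1441 higher and 1538 lower. In RNA-Seq, deviations from the group means correlated between same-numbered libraries with r = 0.699 to 0.840 for tunicamycin 2 h with 6 h, 0.211 to 0.444 for untreated with tunicamycin 6 h, and 0.258, 0.0733 and 0.444 for untreated with tunicamycin 2 h. All pairs but those of untreated replicate 2 were best with their own number, which is a hint of pairing; since 1 pair was under 0.1, and thapsigargin shares only the number 1, the block was not made the main result. In Ribo-Seq the 9 pairs had r = 0.138 to 0.473, each best with its own number. No paired analysis was possible for Ribo-Seq because the thapsigargin label carries no replicate number.

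Some ER stress genes with a difference near 0 turned sign. Against replicate 1 alone HSPA5 was 0.12 in mRNA and 0.13 in footprints, DDIT3 -0.32 and -0.06, ASNS -0.10 in mRNA and ATP2A2 0.44 in footprints. Under the replicate block HSPA5 mRNA was 0.28; without untreated replicate 1 as well, HSPA5 was 0.32 and DDIT3 -0.07. With library size alone, footprints of ASNS were 0.07 and of ATP2A2 0.08. Leaving out each tunicamycin library, ASNS was -0.02 to 0.18 in mRNA and -0.14 to 0.05 in footprints, and ATP2A2 -0.27 to 0.06 in footprints, with 0.02 without replicate 3. Footprint libraries are the shallower ones and limit genes of few counts.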
